A study of Mus musculus with 8 samples.

Results

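The Polycomb group genes described here are 10 genes of the repressive complexes PRC1 and PRC2, chosen by symbol: Ezh1, Ezh2, Eed, Suz12 and Jarid2 of PRC2, and Bmi1, Ring1, Rnf2, Cbx2 and Cbx7 of PRC1. All 10 were found among the 24421 gene symbols of the deposited count table, and all 10 were among the 13722 genes that passed a filter on low counts and were tested. RNA was sequenced from mouse C57BL/6 bone marrow cells of 2 lines labelled with MLL-AF10. In this fusion the histone methyltransferase MLL is joined to AF10, as in some leukaemias. MATIP cells also have floxed alleles of Tip60 (gene Kat5, a histone acetyltransferase) and Cre-ERT2, a recombinase that 4-hydroxytamoxifen (4-OHT) activates. MAflox cells are named MLL-AF10 flox cells in the labels, which name no Cre-ERT2 for them. Whether the fusion itself is floxed in MAflox cells, and whether they keep it in 4-OHT, was not tested. The 4 groups, with 2 libraries each, were MATIP cells after 4 days in 100 nM 4-OHT, MATIP cells after 4 days in the solvent ethanol (EtOH), MAflox cells after 4 days in 100 nM 4-OHT and MAflox cells after 4 days in EtOH. The medium was methylcellulose supplemented with the cytokines SCF, GM-CSF and IL-3. Whether a line is 1 clone, and whether libraries of the same group were cultured apart, is not in the labels, and p-values therefore reflect the spread among these libraries alone, which may be technical.

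Polycomb proteins keep developmental genes silent. PRC2 methylates histone H3 at the H3K27 site through EZH1 or EZH2, and needs EED and SUZ12 to do so. PRC1 ubiquitinates histone H2A through RING1 or RNF2, which pair with a PCGF protein such as BMI1, and its CBX subunits read the mark that PRC2 leaves. Dividing progenitors are known to use mainly EZH2 and resting or mature cells more EZH1, BMI1 is known for the self-renewal of blood stem cells, and mouse leukaemia cells driven by the related fusion MLL-AF9 are known to depend on PRC2.

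The libraries held 41101309 to 57312490 gene counts. Kat5, the floxed gene, had 8.11 and 8.32 CPM (counts scaled to library size) in MATIP 4-OHT, against 41.1 and 41.2 CPM in MATIP EtOH, and 57.5 and 62.5 CPM in MAflox 4-OHT, against 43.7 and 41.2 CPM in MAflox EtOH. It was thus lower with 4-OHT in MATIP cells and higher in MAflox cells (log2 fold change 0.50, edgeR quasi-likelihood adjusted p = 7.5e-06). The common leukocyte gene Ptprc stood at 263 to 696 CPM over the 8 libraries and the myeloid factor gene Spi1 at 165 to 379 CPM, while the lymphoid genes Cd3e, Cd8a, Pax5, Rag1 and Ncr1 and the globin genes Hba-a1 and Hbb-bt had 0 counts in every library. Summed levels of other lineages reached at most 1.07 CPM for 10 lymphoid genes, 7.74 CPM for 8 erythroid and megakaryocyte genes, 12.1 CPM for 8 stromal genes and 34.2 CPM for 8 mast cell and basophil genes. Treatment moved a large part of the transcriptome, so a call on any single gene is common here. With 4-OHT, 76.1% of tested genes changed in MATIP cells (37.5% higher, 38.6% lower) and 65.2% in MAflox cells (33.1% higher, 32.1% lower), where rose, fell and changed are used of genes with an adjusted p under 0.05 (quasi-likelihood test of edgeR, Benjamini-Hochberg over 13722 genes). Of 8 genes listed for myeloid bone marrow cells, Ptprc and Spi1 among them, 5 rose and 3 fell in MATIP cells. In MAflox cells 4 rose and 3 fell. Mpo, Cebpa and Cd34 fell in both lines, and Kit rose in MATIP cells only. Cd34 differed between the lines before treatment, with 15.5 and 11.9 CPM in MATIP EtOH, against 127.5 and 133.6 CPM in MAflox EtOH. Below, levels are CPM scaled by TMM factors, means are given ± SD (n = 2 libraries) and log2 fold changes ± the standard error of the fit to 8 libraries.

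Promoter sequences are shown for Ezh1 and Ezh2, the alternative catalytic subunits of PRC2, which moved in opposite directions, and for Suz12, the most abundant of the 10 genes per length. Each is the 250 bases before the annotated start (RefSeq, build GRCm38.p6), 5′ to 3′ on the gene's strand, with matches to the motifs searched in capitals: TTTCCCGC and TTTGGCGC (forms of the E2F site), TTTGAA (the cell cycle homology region), CCAAT (the CCAAT box) and the NRF1 palindrome, on both strands (a match on the opposite strand shows as its reverse complement). The windows are chr11:101226464-101226713 (minus strand) for Ezh1, chr6:47595031-47595280 (minus strand) for Ezh2 and chr11:79992856-79993105 (plus strand) for Suz12.
Ezh1: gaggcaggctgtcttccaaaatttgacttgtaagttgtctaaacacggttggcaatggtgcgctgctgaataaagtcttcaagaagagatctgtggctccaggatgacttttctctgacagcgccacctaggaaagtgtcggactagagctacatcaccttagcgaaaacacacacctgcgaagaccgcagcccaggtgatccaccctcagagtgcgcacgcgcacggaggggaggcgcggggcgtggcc
Ezh2: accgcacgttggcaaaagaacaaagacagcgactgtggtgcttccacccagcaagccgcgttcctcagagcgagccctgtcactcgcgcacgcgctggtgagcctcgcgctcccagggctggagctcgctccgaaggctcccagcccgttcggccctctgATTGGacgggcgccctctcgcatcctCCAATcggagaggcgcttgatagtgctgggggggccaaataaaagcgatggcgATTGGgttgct
Suz12: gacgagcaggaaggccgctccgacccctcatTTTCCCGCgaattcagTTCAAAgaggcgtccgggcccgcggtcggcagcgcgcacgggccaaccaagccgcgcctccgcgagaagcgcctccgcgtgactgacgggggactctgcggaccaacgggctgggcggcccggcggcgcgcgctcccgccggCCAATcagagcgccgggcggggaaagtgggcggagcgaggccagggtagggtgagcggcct

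The Ezh2 window holds 3 CCAAT boxes, whose first bases lie 90, 64 and 11 bases before the RefSeq start. It lies inside the span of Ezh2 in another annotation, GENCODE M21 (47530139 to 47595341), whose start for this gene is further upstream. The Ezh1 window holds none of the 5 motifs. The Suz12 window holds TTTCCCGC, TTTGAA on the opposite strand and a CCAAT box. Over 9 of the 10 genes with 10 promoters in the table (Cbx2 was not matched), CCAAT was present in 4 promoters, TTTGAA in 3, TTTCCCGC in 1, and TTTGGCGC and the NRF1 palindrome in 0. Among all 32851 promoters of the same length CCAAT was present in 33.8%, TTTGAA in 16%, TTTCCCGC in 0.895%, TTTGGCGC in 0.417% and the NRF1 palindrome in 0.782%. The 10 promoters had an observed over expected CpG ratio of 0.652 to 1.10, against a median of 0.373 and an upper quartile of 0.723 over all promoters. A match is a string of letters and not a site shown to be bound.

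The first question the design poses is how the genes answered 4-OHT in MATIP cells, in which the floxed Kat5 fell. Of the 10 genes 9 changed there, 3 higher (Ezh1, Ring1 and Cbx2) and 6 lower (Ezh2, Eed, Suz12, Jarid2, Bmi1 and Rnf2). In MAflox cells 8 changed, 3 higher (Ezh1, Ring1 and Cbx7) and 5 lower (Ezh2, Eed, Suz12, Jarid2 and Bmi1). Both counts are near the 76.1% and 65.2% of all genes, so the number of genes changed does not set this family apart. The median log2 fold change of the 10 genes was −0.41 in MATIP cells, against 0.00 over all tested genes, and −0.22 in MAflox cells, against 0.02 over all tested genes. In both lines 9 of 10 genes had treated and EtOH libraries that did not overlap, beside 88.3% of tested genes in MATIP cells and 81.1% in MAflox cells.

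**Figure D1:**
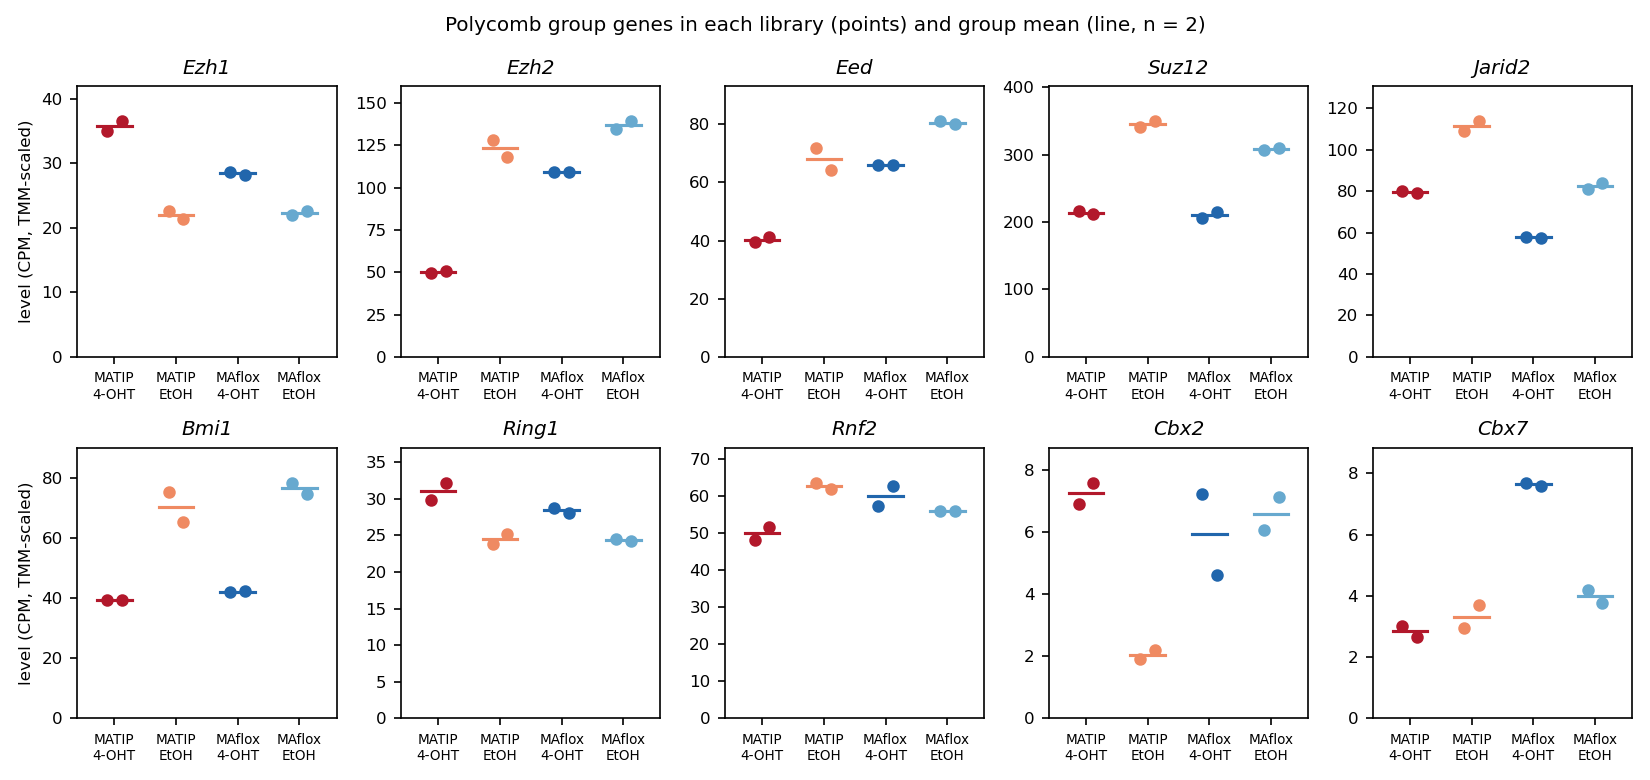
Level of each of the 10 genes (vertical axis, TMM-scaled CPM from 0) in the 8 libraries, by group; points are libraries and lines the mean of 2. Ezh2 is low in MATIP 4-OHT (49.6 and 50.9 CPM), Cbx2 is low in MATIP EtOH (1.91 and 2.19 CPM) and Cbx7 is high in MAflox 4-OHT (7.69 and 7.60 CPM).

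Ezh2, the main H3K27 methyltransferase of dividing cells, showed the deepest fall of the 10 genes in MATIP cells. It had 49.6 and 50.9 CPM in MATIP 4-OHT, against 128 and 118 CPM in MATIP EtOH. Levels were 109 and 109 CPM in MAflox 4-OHT, against 135 and 139 CPM in MAflox EtOH. The MATIP 4-OHT libraries thus lay below all 6 others, and in both lines treated and EtOH libraries were apart. The log2 fold change was −1.30 ± 0.06 in MATIP cells (2.45-fold; edgeR quasi-likelihood adjusted p = 3.18e-13) and −0.33 ± 0.06 in MAflox cells (1.25-fold; edgeR adjusted p = 7.57e-05). Its response differed between the lines by −0.97 ± 0.08 (MATIP minus MAflox; edgeR adjusted p = 9.8e-09). With a trend on transcript length and GC content over all genes removed (called trend-adjusted below, and given with no test), the MAflox value was −0.50 and the difference −0.74.

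Ezh1, its paralogue with weaker methyltransferase activity, rose in both lines. It had 35.0 and 36.5 CPM in MATIP 4-OHT, against 22.7 and 21.3 CPM in MATIP EtOH. In the other line it had 28.7 and 28.2 CPM in MAflox 4-OHT, against 21.9 and 22.5 CPM in MAflox EtOH. The 4 EtOH libraries overlapped, and both treated groups lay above them, with MATIP 4-OHT highest. The log2 fold change was 0.70 ± 0.08 in MATIP cells (edgeR adjusted p = 1.97e-07) and 0.36 ± 0.08 in MAflox cells (edgeR adjusted p = 0.000807), and the difference of responses was 0.35 ± 0.12 (edgeR adjusted p = 0.0139). The MAflox call was lost when libraries were scaled by their totals alone (log2 0.18, adjusted p = 0.0542; 0.000312 to 0.0542 over 14 alternatives). The call on the difference was lost when replicate 2 of MATIP EtOH (adjusted p = 0.0634) or replicate 2 of MAflox EtOH (0.0549) was left out, in a range of 0.00409 to 0.0634 over 13 alternatives, and the trend-adjusted difference was 0.15.

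Set per length, the balance of the catalytic subunits shifted. Ezh1 made up 38.8% and 39.2% of the summed CPM per kilobase of exon of Ezh1 and Ezh2 in MATIP 4-OHT, against 13.7% and 13.9% in MATIP EtOH. The same share was 19.1% and 18.8% in MAflox 4-OHT, against 12.7% and 12.7% in MAflox EtOH. Within a group the libraries differed by less than 1 percentage point, and the groups did not overlap. The sum itself was 12.1 and 12.5 CPM per kilobase in MATIP 4-OHT, against 22.3 and 20.6 in MATIP EtOH, and 20.2 and 20.2 in MAflox 4-OHT, against 23.1 and 23.9 in MAflox EtOH. Total EZH transcript thus stood lowest in MATIP 4-OHT although its Ezh1 part was highest there. With 2 libraries against 2 an exact two-sided permutation test cannot go below p = 0.333, so no test is given for shares.

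Eed, which binds the methyl mark and stimulates the enzyme, followed Ezh2 at a smaller size. It had 39.4 and 41.1 CPM in MATIP 4-OHT, against 71.8 and 64.3 CPM in MATIP EtOH. Levels were 66.1 and 65.8 CPM in MAflox 4-OHT, against 81.0 and 80.0 CPM in MAflox EtOH. MAflox 4-OHT lay within the range of MATIP EtOH, and MATIP 4-OHT below both. The log2 fold change was −0.76 ± 0.07 in MATIP cells (edgeR adjusted p = 5.68e-09) and −0.29 ± 0.07 in MAflox cells (edgeR adjusted p = 0.000866), a difference of −0.47 ± 0.09 (edgeR adjusted p = 0.000278). Trend-adjusted, the MAflox value was −0.58 and the difference −0.22.

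Suz12, the structural subunit on which PRC2 assembles, was the most abundant of the 10 per length, with a mean of 43.3 CPM per kilobase in MATIP 4-OHT, 69.8 in MATIP EtOH, 42.5 in MAflox 4-OHT and 62.4 in MAflox EtOH. It had 216 and 212 CPM in MATIP 4-OHT, against 341.0 and 349.5 CPM in MATIP EtOH, and 206 and 214 CPM in MAflox 4-OHT, against 307 and 309 CPM in MAflox EtOH. The treated libraries of both lines overlapped with each other and lay below all EtOH libraries. Suz12 fell by 0.69 ± 0.05 on the log2 scale in MATIP cells (edgeR adjusted p = 4.8e-10) and by 0.55 ± 0.05 in MAflox cells (edgeR adjusted p = 2.13e-08). The difference of responses, −0.14 ± 0.07, did not pass (edgeR adjusted p = 0.116).

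Jarid2, an accessory subunit that helps bring PRC2 to its targets, had 80.2 and 79.1 CPM in MATIP 4-OHT, against 109 and 114 CPM in MATIP EtOH. In the other line it had 58.1 and 57.2 CPM in MAflox 4-OHT, against 81.1 and 84.1 CPM in MAflox EtOH. As measured, CPM was higher in MATIP than in MAflox cells under either treatment, and lower in 4-OHT than in EtOH in either line. Jarid2 fell by 0.48 ± 0.06 on the log2 scale in MATIP cells (edgeR adjusted p = 4.13e-07) and by 0.52 ± 0.06 in MAflox cells (edgeR adjusted p = 3.05e-07), with a difference of 0.04 ± 0.08 (edgeR adjusted p = 0.739). This arrangement depends on the length and GC trend: trend-adjusted, the MAflox response turned to 0.12, the MATIP minus MAflox value under 4-OHT turned to −0.39, and the difference of responses moved to −0.69. Jarid2 has the longest transcript of the 10 genes at 8353 bases.

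**Figure D2:**
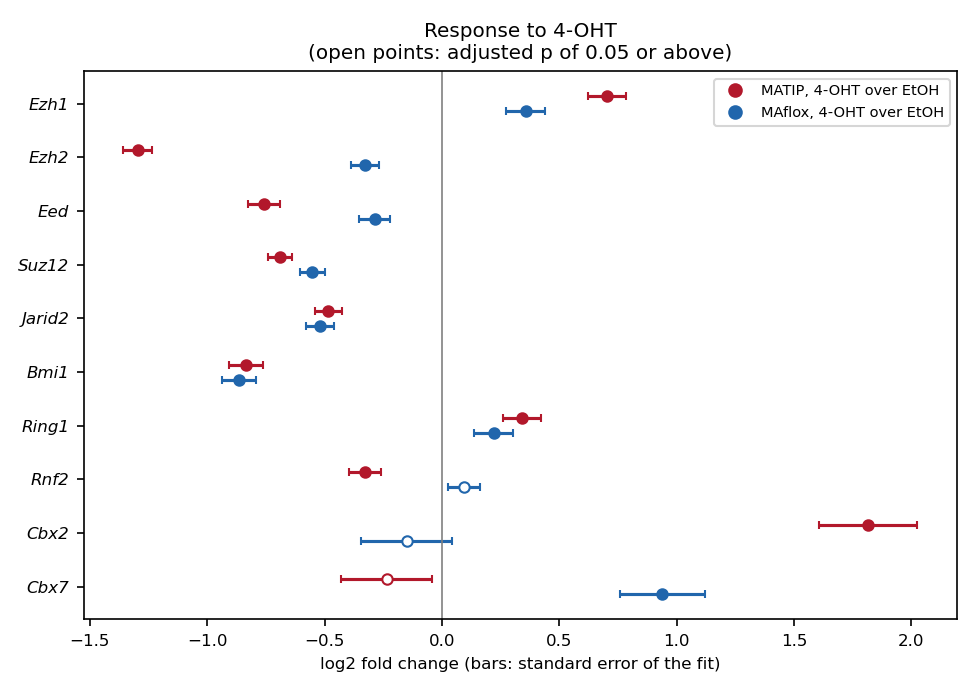
Log2 fold change of 4-OHT over EtOH (horizontal axis) for each gene in MATIP and in MAflox cells; bars are the standard error of the fit and open points have an adjusted p of 0.05 or above. Suz12, Jarid2, Bmi1 and Ring1 have points close together in both lines, and Ezh2 (−1.30 and −0.33), Cbx2 (1.82 and −0.15) and Cbx7 (−0.24 and 0.94) lie apart.

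Bmi1, the PCGF subunit known for stem cell self-renewal, fell in both lines. It had 39.5 and 39.3 CPM in MATIP 4-OHT, against 75.3 and 65.5 CPM in MATIP EtOH. In MAflox 4-OHT it had 42.0 and 42.3 CPM, against 78.4 and 74.9 CPM in MAflox EtOH. The EtOH libraries of the 2 lines overlapped, and the treated ones lay well below. The log2 fold change was −0.84 ± 0.07 in MATIP cells (1.78-fold; edgeR adjusted p = 3.68e-09) and −0.86 ± 0.07 in MAflox cells (1.82-fold; edgeR adjusted p = 3.74e-09), and the difference was 0.03 ± 0.10 (edgeR adjusted p = 0.837). In MAflox cells this was the deepest fall of the 10 genes.

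Ring1 and Rnf2 encode the alternative ubiquitin ligases of PRC1. Ring1 had 29.8 and 32.2 CPM in MATIP 4-OHT, against 23.8 and 25.2 CPM in MATIP EtOH, and 28.8 and 28.1 CPM in MAflox 4-OHT, against 24.5 and 24.3 CPM in MAflox EtOH. It rose by 0.34 ± 0.08 on the log2 scale in MATIP cells (edgeR adjusted p = 0.000961) and by 0.22 ± 0.08 in MAflox cells (edgeR adjusted p = 0.0247). The MAflox call was lost in 4 of 14 alternatives (adjusted p 0.019 to 0.623): with library totals only (0.623), and without MAflox 4-OHT replicate 1 (0.0927), MAflox EtOH replicate 1 (0.0737) or MAflox EtOH replicate 2 (0.0983). The responses of Ring1 differed by 0.12 ± 0.12 (edgeR adjusted p = 0.389).

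Rnf2, which encodes RING1B, had 48.2 and 51.4 CPM in MATIP 4-OHT, against 63.5 and 61.7 CPM in MATIP EtOH, and 57.1 and 62.5 CPM in MAflox 4-OHT, against 56.0 and 55.9 CPM in MAflox EtOH. MATIP 4-OHT was the lowest group, and the other 6 libraries lay between 55.9 and 63.5 CPM. The log2 fold change was −0.33 ± 0.07 in MATIP cells (edgeR adjusted p = 0.000258) and 0.10 ± 0.07 in MAflox cells, which did not pass (edgeR adjusted p = 0.232), and the responses differed by −0.42 ± 0.10 (edgeR adjusted p = 0.000864). Trend-adjusted, the MATIP response was −0.12 and the difference −0.01, so the Rnf2 difference was not seen on that scale. Without that adjustment, Ring1 made up 44.1% and 44.3% of the summed per-length level of Ring1 and Rnf2 in MATIP 4-OHT, against 32.3% and 34.2% in MATIP EtOH. This unadjusted share was 39.1% and 36.4% in MAflox 4-OHT, against 35.8% and 35.6% in MAflox EtOH.

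The CBX readers were the least abundant members and the ones whose responses differed most between the lines. Cbx2 had 6.92 and 7.59 CPM in MATIP 4-OHT, against 1.91 and 2.19 CPM in MATIP EtOH. In MAflox 4-OHT it had 7.25 and 4.63 CPM, against 6.06 and 7.12 CPM in MAflox EtOH. MATIP EtOH thus stood below the other 6 libraries, which overlapped with each other. Cbx2 rose by 1.82 ± 0.21 on the log2 scale in MATIP cells (3.52-fold; edgeR adjusted p = 2.08e-07), while the value in MAflox cells, −0.15 ± 0.19, did not pass (edgeR adjusted p = 0.515). The responses differed by 1.97 ± 0.29 (edgeR adjusted p = 7.19e-06). The MAflox value rests on unlike libraries: it was −0.51 without MAflox 4-OHT replicate 1 (adjusted p = 0.0488) and 0.15 without MAflox 4-OHT replicate 2 (adjusted p = 0.524), in a range of 0.0488 to 0.943 over 14 alternatives.

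Cbx7, a reader of the H3K27 mark known in mouse blood stem cells for promoting self-renewal, showed the reverse arrangement. It had 3.01 and 2.66 CPM in MATIP 4-OHT, against 2.94 and 3.70 CPM in MATIP EtOH. In MAflox 4-OHT it had 7.69 and 7.60 CPM, against 4.20 and 3.78 CPM in MAflox EtOH. Only MAflox 4-OHT stood apart from the other 6 libraries on the high side. The log2 fold change was 0.94 ± 0.18 in MAflox cells (1.92-fold; edgeR adjusted p = 0.00015) and −0.24 ± 0.19 in MATIP cells, which did not pass (edgeR adjusted p = 0.277), and the responses differed by −1.18 ± 0.27 (edgeR adjusted p = 0.00079). Trend-adjusted, the MAflox value was 1.43 and the difference −1.83. Cbx7 rested on 127 to 364 counts a library and Cbx2 on 88 to 385, against at least 965 counts a library for each of the other 8 genes.

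Of the 10 genes 6 thus answered 4-OHT differently in the 2 lines by the test of the difference itself, 2 more positively in MATIP cells (Ezh1 and Cbx2) and 4 more negatively (Ezh2, Eed, Rnf2 and Cbx7). Over all tested genes 61.9% passed that test, 28.3% upward and 33.6% downward. Trend-adjusted, the differences of Ezh2 (−0.74), Cbx2 (1.65) and Cbx7 (−1.83) kept their sign at 0.74 or more in size, those of Ezh1 (0.15) and Eed (−0.22) were smaller by over 1.5 times, that of Rnf2 was −0.01, and that of Jarid2, which did not pass, was −0.69. The other 4 genes (Suz12, Jarid2, Bmi1 and Ring1) had differences of −0.14 to 0.12 with standard errors of 0.07 to 0.12, which does not show that the responses of these genes were equal.

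The lines also differed before treatment. In EtOH 4 of the 10 genes differed between MATIP and MAflox cells, beside 32% of all tested genes (20.3% higher, 11.7% lower), with 2 higher in MATIP (Jarid2, 0.43 ± 0.06, edgeR adjusted p = 1.27e-05; Suz12, 0.16 ± 0.05, edgeR adjusted p = 0.0219) and 2 lower (Cbx2, −1.68 ± 0.21, edgeR adjusted p = 4.73e-06; Eed, −0.24 ± 0.07, edgeR adjusted p = 0.00814). The Suz12 call was lost in 9 of 14 alternatives (adjusted p 0.0201 to 0.127). The Eed call was lost when replicate 2 of MATIP EtOH (adjusted p = 0.148) or replicate 1 of MAflox EtOH (0.0574) was left out, in a range of 0.0012 to 0.148, and the count of 4 became 2 without either of these libraries. Ezh2 in EtOH, at −0.15 ± 0.06, just missed the threshold (edgeR adjusted p = 0.0567), passed in 10 of 14 alternatives, and ranged from 0.0152 to 0.414.

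Under 4-OHT 6 of the 10 genes differed between MATIP and MAflox cells, beside 75.5% of all tested genes (38.1% higher, 37.5% lower). Higher in MATIP 4-OHT were Jarid2 (0.47 ± 0.06, edgeR adjusted p = 9.36e-07) and Ezh1 (0.33 ± 0.08, edgeR adjusted p = 0.00114), but trend-adjusted Jarid2 turned to −0.39 and Ezh1 came to 0.0683. Lower were Cbx7 (−1.43 ± 0.19, 2.7-fold, edgeR adjusted p = 1.18e-06), Ezh2 (−1.12 ± 0.06, 2.17-fold, edgeR adjusted p = 3.88e-12), Eed (−0.71 ± 0.07, edgeR adjusted p = 1.58e-08) and Rnf2 (−0.26 ± 0.07, edgeR adjusted p = 0.00205). Trend-adjusted, Rnf2 turned to 0.19, and Cbx7 (−2.16), Ezh2 (−0.88) and Eed (−0.51) stayed lower. Cbx2, the gene with the widest gap in EtOH, no longer passed under 4-OHT (0.29 ± 0.19, edgeR adjusted p = 0.184; −0.01 without MAflox 4-OHT replicate 2 and 0.65 without MAflox 4-OHT replicate 1, and 0.0124 to 0.967 over 14 alternatives). These comparisons share libraries with the responses and are not independent of them.

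**Figure D3:**
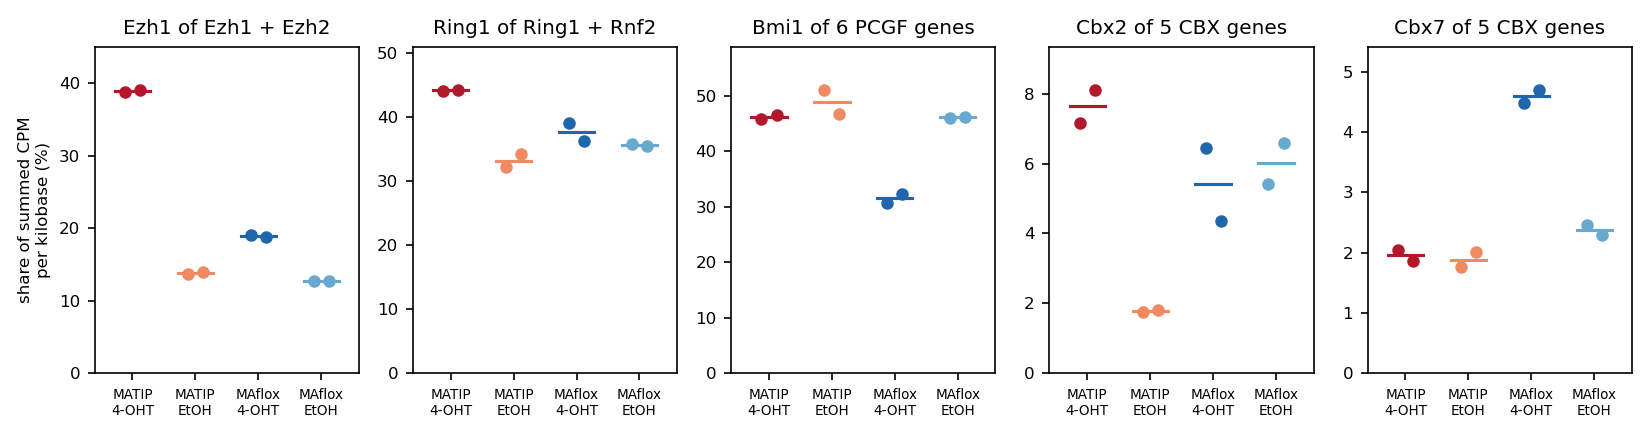
Share of each gene in the summed per-length level (CPM per kilobase of exon) of its alternatives, in percent on the vertical axis from 0; points are libraries and lines the mean of 2. The Ezh1 share is 38.8% and 39.2% in MATIP 4-OHT and 12.7% to 19.1% in the other groups, the Bmi1 share is lowest in MAflox 4-OHT and the Cbx2 share lowest in MATIP EtOH.

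Among alternative subunits, Bmi1 made up 45.8% and 46.6% of the per-length level of the 6 PCGF genes in MATIP 4-OHT, against 51.1% and 46.7% in MATIP EtOH, and 30.7% and 32.3% in MAflox 4-OHT, against 45.9% and 46.2% in MAflox EtOH. The share in MATIP 4-OHT lay just below that in MATIP EtOH, and the share in MAflox 4-OHT lay below all other libraries. In MAflox cells Pcgf1 rose (log2 0.82 ± 0.13, edgeR adjusted p = 1.5e-05) and Pcgf5, at 0.13 ± 0.07, did not pass (edgeR adjusted p = 0.109). Pcgf2, at 0.14 ± 0.18, did not pass there either (edgeR adjusted p = 0.499). Pcgf3 (−0.81 ± 0.08, edgeR adjusted p = 3.16e-08) and Pcgf6 (−0.83 ± 0.09, edgeR adjusted p = 1.97e-07) fell in MAflox cells, as Bmi1 did. In MATIP cells Pcgf5 fell by 0.69 ± 0.07 (edgeR adjusted p = 6.44e-08). Pcgf2 (−1.07 ± 0.21), Pcgf3 (−0.56 ± 0.08) and Pcgf6 (−1.73 ± 0.10) also fell there, and Pcgf1, at −0.12 ± 0.13, did not pass. Pcgf2, Pcgf3 and Pcgf5 were picked after their values were seen. Cbx2 made up 7.16% and 8.12% of the per-length level of 5 CBX genes in MATIP 4-OHT, against 1.75% and 1.82% in MATIP EtOH, and 6.45% and 4.37% in MAflox 4-OHT, against 5.43% and 6.60% in MAflox EtOH.

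Genes of cell division were followed beside Ezh2 and Eed. Over all tested genes 38.6% fell and 37.5% rose in MATIP cells, and 32.1% fell and 33.1% rose in MAflox cells. Of 20 S phase genes 20 fell in MATIP cells, and in MAflox cells 13 fell and 3 rose. Their summed level was 2557 to 2578 CPM in MATIP 4-OHT, against 5468 to 5580 CPM in MATIP EtOH, and 4416 to 4558 CPM in MAflox 4-OHT, against 5646 to 5665 CPM in MAflox EtOH, which is the order of groups that Ezh2 also showed. Of 20 mitosis genes 19 fell in MATIP cells, and in MAflox cells 10 fell and 3 rose. Their sums were 1747 to 1793 CPM in MATIP 4-OHT, against 3981 to 3984 CPM in MATIP EtOH, and 3541 to 3764 CPM in MAflox 4-OHT, against 4006 to 4222 CPM in MAflox EtOH. The mitosis gene that did not pass in MATIP cells was Mki67 (log2 −0.01 ± 0.07, edgeR adjusted p = 0.866). It had 468 and 443 CPM in MATIP 4-OHT, above the 214.5 and 199 CPM in MAflox 4-OHT. The difference of responses was called negative for 18 and positive for 2 of the 20 genes in each list, beside 33.6% and 28.3% of all tested genes.

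Markers of mature cells rose at the same time. Among all tested genes 37.5% rose and 38.6% fell in MATIP cells, and 33.1% rose and 32.1% fell in MAflox cells. All 12 mature neutrophil genes rose in both lines, with sums of 35740 to 39360 CPM in MATIP 4-OHT, against 768 to 911 CPM in MATIP EtOH, and 51400 to 55040 CPM in MAflox 4-OHT, against 220 to 224 CPM in MAflox EtOH. Of 12 monocyte and macrophage genes 10 passed the filter; all 10 rose in MATIP cells and 8 in MAflox cells, with sums of 18460 to 19520 CPM in MATIP 4-OHT, against 477 to 518 CPM in MATIP EtOH, and 5121 to 5219 CPM in MAflox 4-OHT, against 418 to 444 CPM in MAflox EtOH (C1qa had 0 counts). Of 5 tested erythroid and megakaryocyte genes 3 rose and 1 fell in MATIP cells, and 3 rose and 0 fell in MAflox cells. Of 4 tested stromal genes 4 rose in MATIP cells, and 2 rose and 1 fell in MAflox cells, and the 1 tested lymphoid gene rose in MATIP cells and did not pass in MAflox cells. Of 5 tested mast cell and basophil genes 1 rose and 2 fell in MATIP cells and 5 rose in MAflox cells, with sums of 2.98 to 2.99 CPM in MATIP 4-OHT, against 7.90 to 8.61 CPM in MATIP EtOH, and 32.2 to 34.2 CPM in MAflox 4-OHT, against 22.4 to 24.3 CPM in MAflox EtOH. The part of cell division and of cell type in the Polycomb changes was not tested, and in bulk RNA fewer cells of a type and less RNA per cell cannot be told apart.

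Transcript length and GC content moved with the fold changes over all genes. With genes cut into 5 equal length classes, the shortest (56 to 1849 bases) had a median log2 of −0.03 in MATIP and 0.31 in MAflox cells, and the longest (5125 to 123179 bases) had 0.09 in MATIP and −0.37 in MAflox cells. With 5 GC classes, the median in MATIP cells was −0.13 in the lowest (29.6% to 44.0%) and 0.12 in the highest (55.5% to 82.2%). Trend-adjusted, the MATIP response was −1.16 for Ezh2, −0.64 for Bmi1 and −0.59 for Suz12, and the difference of responses of Bmi1 moved to 0.34.

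The rest of the Polycomb machinery was followed through lists chosen by function. Their counts stand beside all tested genes, of which 38.6% fell and 37.5% rose in MATIP cells. In MAflox cells 32.1% of all tested genes fell and 33.1% rose. Of 7 other PRC2 genes 5 fell and 2 rose in MATIP cells, and 3 fell and 2 rose in MAflox cells, with medians of −0.82 and −0.10. The histone-binding subunit gene Rbbp7 fell by 1.40 ± 0.05 in MATIP and by 0.50 ± 0.05 in MAflox cells on the log2 scale. Its paralogue Rbbp4 fell in MATIP cells (−0.84 ± 0.06, edgeR adjusted p = 6.86e-11) and rose in MAflox cells (0.19 ± 0.06, edgeR adjusted p = 0.00459), a difference of −1.03 ± 0.08 (edgeR adjusted p = 1.53e-09). Mtf2, a Polycomb-like accessory subunit, fell in both (−0.84 ± 0.07 in MATIP, −0.31 ± 0.07 in MAflox), as did Aebp2 (−0.56 ± 0.06 and −0.67 ± 0.07). Phf1, another Polycomb-like gene, rose in both (1.17 ± 0.16 in MATIP, 0.96 ± 0.17 in MAflox). Lcor rose in MATIP cells (0.42 ± 0.17, edgeR adjusted p = 0.035).

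Of 28 other PRC1 genes 16 fell and 6 rose in MATIP cells (median −0.45), beside 38.6% and 37.5% of all tested genes. In MAflox cells 17 fell and 5 rose (median −0.44), beside 32.1% and 33.1% of all tested genes. PRC1 genes that fell in both lines included Bcor, Kdm2b, Pcgf6, L3mbtl2, Usp7 and Cbx6. Bcor had log2 fold changes of −1.10 ± 0.07 in MATIP and −1.34 ± 0.07 in MAflox cells, Kdm2b, whose protein binds unmethylated CpG, −1.24 ± 0.06 in MATIP and −0.74 ± 0.06 in MAflox cells, and Pcgf6 −1.73 ± 0.10 in MATIP and −0.83 ± 0.09 in MAflox cells. L3mbtl2 stood at −0.68 ± 0.06 in MATIP and −0.99 ± 0.06 in MAflox cells, and Usp7 at −0.73 ± 0.06 in MATIP and −0.85 ± 0.06 in MAflox cells. Cbx6, of the same reader family as Cbx2 and Cbx7, had −1.32 ± 0.07 in MATIP and −0.57 ± 0.07 in MAflox cells. Rybp rose in both lines (0.45 ± 0.08 in MATIP, 0.52 ± 0.08 in MAflox), while its relative Yaf2 fell in MATIP (−0.47 ± 0.06) and rose in MAflox cells (0.46 ± 0.06), a difference of −0.93 ± 0.09 (edgeR adjusted p = 2.95e-08).

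The Polyhomeotic gene Phc1 went in opposite directions, with 11.2 and 9.29 CPM in MATIP 4-OHT, against 1.17 and 2.28 CPM in MATIP EtOH, and 1.29 and 1.38 CPM in MAflox 4-OHT, against 2.57 and 2.83 CPM in MAflox EtOH. Its log2 fold change was 2.54 ± 0.24 in MATIP cells (edgeR adjusted p = 1.36e-08) and −1.02 ± 0.27 in MAflox cells (edgeR adjusted p = 0.00274), a difference of 3.56 ± 0.36 (edgeR adjusted p = 7.47e-08). Phc2, its paralogue, rose in MATIP (0.40 ± 0.07) and fell in MAflox cells (−0.39 ± 0.07), a difference of 0.80 ± 0.09 (edgeR adjusted p = 4.86e-07). Scml4, a gene of the Scm family, had 8.70 and 9.45 CPM in MATIP 4-OHT, against 0.239 and 0.201 CPM in MATIP EtOH, and 1.06 and 1.06 CPM in MAflox 4-OHT, against 0.273 and 0.209 CPM in MAflox EtOH (log2 5.36 ± 0.30 in MATIP, 2.14 ± 0.35 in MAflox).

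**Figure D4:**
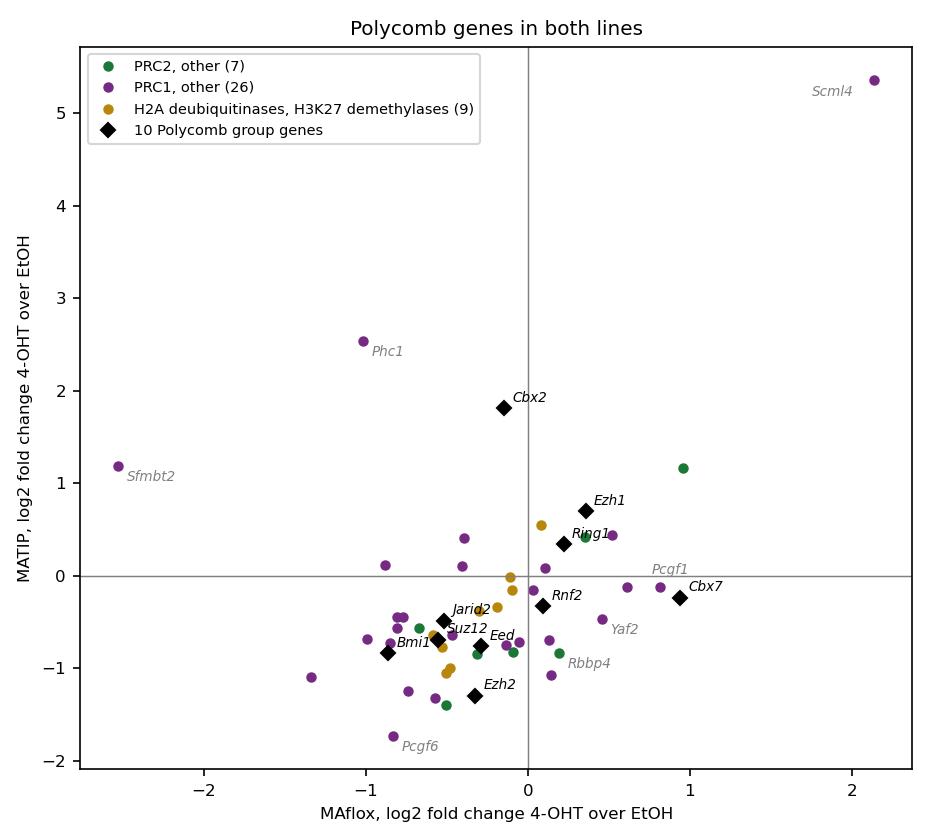
Log2 fold change of 4-OHT over EtOH in MATIP (vertical axis) and in MAflox cells (horizontal axis) for the 10 genes (diamonds) and 42 other Polycomb genes with a mean of at least 1 CPM (circles). Most points lie in the lower left, while Phc1 (2.54 and −1.02) and Cbx2 (1.82 and −0.15) lie in the upper left and Pcgf1 and Cbx7 to the right near 0 on the vertical axis.

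Taken as a list, genes of enzymes that remove the Polycomb marks and of their partners mostly fell. Of 9 tested genes 7 fell and 1 rose in MATIP cells (median −0.38), beside 38.6% and 37.5% of all tested genes. In MAflox cells 6 fell and 0 rose (median −0.30), beside 32.1% and 33.1% of all tested genes. Asxl1, a partner of the H2A deubiquitinase BAP1, had −0.77 ± 0.06 in MATIP and −0.53 ± 0.06 in MAflox cells, and Asxl2 −1.05 ± 0.07 in MATIP and −0.51 ± 0.07 in MAflox cells. The forkhead gene Foxk2 had −0.996 ± 0.06 in MATIP and −0.48 ± 0.06 in MAflox cells, and Foxk1 −0.63 ± 0.07 in MATIP and −0.59 ± 0.07 in MAflox cells, all of them called. The enzyme genes that did not rise, named here to give every enzyme, moved less. Usp16 fell by 0.38 ± 0.06 in MATIP and 0.30 ± 0.06 in MAflox cells, and Kdm6a by 0.33 ± 0.07 and 0.19 ± 0.07. Bap1 fell by 0.16 ± 0.06 in MATIP cells, and its MAflox value, −0.10 ± 0.06, did not pass. Mysm1 passed in neither line (−0.01 ± 0.08 in MATIP, −0.11 ± 0.08 in MAflox). The gene that rose was Kdm6b, a demethylase of H3K27 known for induction in macrophages, at 39.0 and 38.1 CPM in MATIP 4-OHT, against 21.6 and 30.8 CPM in MATIP EtOH (0.55 ± 0.11, edgeR adjusted p = 0.000221), and its value in MAflox cells, 0.08 ± 0.11, did not pass (edgeR adjusted p = 0.553); the responses differed by 0.47 ± 0.16 (edgeR adjusted p = 0.0164).

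Of 30 genes that Polycomb complexes classically silence, 19 had 0 counts in all 8 libraries, among them Gata4, Pax3, Sox17, Neurog1 and Hoxd13, and only 5 passed the filter. Of those 5 genes 4 were higher with 4-OHT in MATIP and 1 in MAflox cells, beside 37.5% and 33.1% of all tested genes. However, a gene that passes only through the group where it is high had to differ. Cdkn2a, which encodes the cell cycle inhibitor p16 and ARF, had 1.78 and 3.04 CPM in MATIP 4-OHT, against 0.392 and 0.101 CPM in MATIP EtOH (log2 3.35, edgeR adjusted p = 1.52e-05), and 0.740 and 0.737 CPM in MAflox 4-OHT, against 0.591 and 0.3799 CPM in MAflox EtOH (edgeR adjusted p = 0.318). The cell cycle inhibitor gene Cdkn1c had 3.41 and 2.45 CPM in MATIP 4-OHT, against 0.0870 and 0.335 CPM in MATIP EtOH, and 1.73 and 1.77 CPM in MAflox 4-OHT, against 0.545 and 1.14 CPM in MAflox EtOH. Lhx2 had 2.23 and 2.27 CPM in MATIP 4-OHT, against 0 and 0.0670 CPM in MATIP EtOH, and Cdkn2b, added because the count is small, 1.33 and 1.12 CPM in MATIP 4-OHT, against 0.0435 and 0 CPM in MATIP EtOH. In MAflox cells Lhx2 had 0.127 and 0 CPM in 4-OHT, against 0.0908 and 0.0380 CPM in EtOH (edgeR adjusted p = 0.967), and Cdkn2b 0.254 and 0.0921 CPM in 4-OHT, against 0 and 0.0570 CPM in EtOH (edgeR adjusted p = 0.0703). The fifth tested gene, Hoxb13, had 1.92 and 2.66 CPM in MATIP 4-OHT, against 2.39 and 2.48 CPM in MATIP EtOH (log2 −0.08, edgeR adjusted p = 0.838), and 0.127 and 0.368 CPM in MAflox 4-OHT, against 0.454 and 0.228 CPM in MAflox EtOH (edgeR adjusted p = 0.498). Hoxb13 was thus higher in MATIP than in MAflox cells already in EtOH (log2 2.85 ± 0.43, edgeR adjusted p = 4.48e-05). No histone mark was measured in these samples.

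Genes whose pattern was most like each of the 10 were found by the root mean square difference of centred log2 levels over the 8 libraries, among 9502 genes of at least 5 CPM. Nearest to Ezh2 were Mak16 (0.03), a ribosome biogenesis factor, and Psmg2 (0.04), a proteasome assembly chaperone. Nearest to Eed were the mitochondrial ribosomal gene Mrps10 (0.04) and the chaperonin subunit gene Cct4 (0.06). For Ezh1 they were Sike1 (0.05) and Pole4 (0.05), for Suz12 the kinase gene Tlk2 (0.04) and a membrane skeleton gene of the band 4.1 family, Epb4.1 (0.03), and for Jarid2 Kansl3 (0.05) and H6pd (0.06). Bmi1 was nearest to Gfm1 (0.05) and Pwwp2a (0.06), Ring1 to Atg4b (0.03) and Lnp (0.05), and Rnf2 to Spop (0.02) and Atxn7l3 (0.04). Cbx2 was nearest to Galnt6 (0.16) and Epsti1 (0.24), and Cbx7 to Zrsr1 (0.09) and to Pcgf1 (0.09), itself a PRC1 gene. These distances are not scaled by how much a gene varied. The root mean square of Cbx2 about its own mean was 0.66, the largest of the 10 genes, and that of Rnf2 was 0.13, the smallest.

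On the mm10 assembly all 10 genes are annotated as protein-coding (GENCODE M21). In PRC2, Ezh1 lies on chromosome 11 at 101191115 to 101226463, Ezh2 on chromosome 6 at 47530139 to 47595341, Eed on chromosome 7 at 89954654 to 89980983, Suz12 on chromosome 11 at 79993106 to 80034123 and Jarid2 on chromosome 13 at 44729474 to 44921643. In PRC1, Bmi1 lies on chromosome 2 at 18677018 to 18686629, Ring1 on chromosome 17 at 34020792 to 34024680, Rnf2 on chromosome 1 at 151458004 to 151500955, Cbx2 on chromosome 11 at 119022962 to 119031270 and Cbx7 on chromosome 15 at 79915807 to 79971119. Exon bases shared with a gene on the opposite strand number 174 for Ezh2, 261 for Eed, 178 for Suz12, 158 for Rnf2 (with Trmt1l) and 100 for Cbx7 (with Apobec3), and since the strandedness of the counting is not given in the sources used here, reads over those bases cannot be told apart.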

How the data were processed

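RNA from 8 libraries in 4 groups was counted per gene symbol. The deposited table holds whole-number counts, not normalized, and the submitters' processing notes name build mm10, featureCounts 1.6.4, HISAT2 2.1.0, DESeq2 and Trimmomatic 0.38.0. For strandedness, multi-mapping reads and annotation, the choice is not given in the sources. The authors' log2 fold changes and adjusted p-values for each line come from another deposited table.

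Genes passing filterByExpr (minimum count 10, minimum total 15) numbered 13722. Counts were scaled with TMM factors and tested with edgeR 4.0.16 quasi-likelihood (R 4.3.3) on all 8 libraries, 1 coefficient per group and no covariate (4 residual degrees of freedom). Within each of 5 contrasts, Benjamini-Hochberg adjustment was applied and genes were called at 0.05. The standard error is the log2 fold change over the square root of F. CPM per kilobase uses merged exon lengths from GENCODE M21. Tests were tried first on simulated data. Replicates of each group differed by more than counting error (ratio of chi-square to its degrees of freedom, 7.33 to 13.65). Alternatives were RLE factors, library totals, no filter, 4 libraries only, DESeq2 1.42.0, a replicate block, each library left out, and removal of a length and GC trend (mgcv 1.9.3; 96.2% of tested genes had both).

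The 10 genes, the lists and the motifs were chosen with earlier results of these data known. Named besides the 10 were up to 3 called genes per direction, list and treatment contrast with the smallest p, and the 2 genes nearest in pattern to each called gene. Of the other PRC2 genes, Epop and Ezhip were not matched by symbol. Some results on withheld items are not reported here.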

Additional observations from a re-analysis of the deposited data

Results flagged for a closer look

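The response to 4-OHT differed between MATIP and MAflox cells for 6 of the 10 genes by the interaction term of the edgeR quasi-likelihood fit, beside 61.9% of all tested genes. The difference (MATIP minus MAflox, log2) was 0.35 for Ezh1, −0.97 for Ezh2, −0.47 for Eed, −0.42 for Rnf2, 1.97 for Cbx2 and −1.18 for Cbx7. Trend-adjusted for length and GC, these became 0.15 for Ezh1, −0.74 for Ezh2, −0.22 for Eed, −0.01 for Rnf2, 1.65 for Cbx2 and −1.83 for Cbx7, so that the Rnf2 difference was not seen on that scale. The Ezh1 call was also lost in 2 of 13 alternatives (adjusted p 0.00409 to 0.0634). Cbx2 and Cbx7, the 2 CBX genes, had the widest differences and opposite signs. For Cbx2 the difference comes with a low EtOH level in MATIP cells (2.05 ± 0.20 CPM, against 6.59 ± 0.75 CPM in MAflox EtOH), and the treated groups were at 7.26 ± 0.48 CPM in MATIP and 5.94 ± 1.85 CPM in MAflox cells (SD, n = 2 each). For Cbx7 it comes with a high treated level in MAflox cells (2.84 ± 0.25 CPM in MATIP 4-OHT, against 7.65 ± 0.07 CPM in MAflox 4-OHT), and the EtOH groups were at 3.32 ± 0.54 CPM in MATIP and 3.99 ± 0.30 CPM in MAflox cells.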

How the results depend on the processing

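Of 50 values (10 genes in 5 contrasts) 36 kept their call and sign in every alternative with a test. Removal of the length and GC trend, which had no test, is not in that count. It moved 30 of the 50 values by more than their pooled SD between replicates and turned the sign of 3 called values, and 17 stayed the same. The counts of genes changed under the replicate block were 9 (MATIP response), 8 (MAflox response), 6 (difference), 4 (EtOH) and 6 (4-OHT), and no call or sign changed under the block. Deviations of libraries with the same number correlated at −0.061 in MATIP and −0.004 in MAflox cells, so no shift shared by number was seen. With 2 libraries a group this cannot decide whether libraries of the same number came from the same culture. Leaving out 1 library at a time gave 2 to 6 genes for the EtOH contrast, and 9, 7 to 8, 5 to 6 and 6 to 7 for the MATIP response, the MAflox response, the difference and the 4-OHT contrast.

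Scaling by library totals moved the median of all genes to −0.15 in MAflox and −0.13 in MATIP cells. All-gene calls in MAflox cells were then 3540 higher and 5587 lower, against 4548 and 4399, and those of the 10 genes 1 and 5, against 3 and 5 (1 and 3 in the EtOH contrast, against 2 and 2). Rnf2 in MAflox cells then stood at −0.0781.

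The sign of Ring1 in EtOH turned with RLE factors or DESeq2 (−0.0171 and −0.0172), library totals (−0.0351), no filter (−0.0215) and 4 libraries (−0.027). Among called values, removal of the length and GC trend, with or without the replicate block, turned Jarid2 in MAflox cells to 0.12. It also turned Jarid2 between lines under 4-OHT to −0.39 and Rnf2 there to 0.19. Values that were not called turned as well. Without the block these included Rnf2 in MAflox cells (0.0954 to −0.0732), Bmi1 between lines under 4-OHT (−0.0961 to 0.2377) and the Jarid2 difference (0.0352 to −0.6885). The cause was not tested. Leaving out 1 library changed a sign within these ranges: Bmi1 difference −0.0826 to 0.12, Jarid2 difference −0.0023 to 0.0769, Cbx2 in MAflox cells −0.51 to 0.15, Cbx2 under 4-OHT −0.0104 to 0.65, Ezh1 in EtOH −0.0628 to 0.0298 and Ring1 in EtOH −0.0325 to 0.0442. Depth limits mainly Cbx2 and Cbx7.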

Other observations

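Cbx6 made up 11.5% and 12.5% of the summed per-length level of 5 CBX genes in MATIP 4-OHT, against 25.6% and 23.7% in MATIP EtOH, and 16.9% and 16.7% in MAflox 4-OHT, against 25.7% and 23.9% in MAflox EtOH. The share of Cbx8 in the same sum was 8.33% and 5.69% in MATIP 4-OHT, against 6.74% and 5.88% in MATIP EtOH, and 15.02% and 12.9% in MAflox 4-OHT, against 8.92% and 9.36% in MAflox EtOH.

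The authors' deposited table gives the same signs for all 10 genes in both lines. In the authors' deposited table Ezh2 has a log2 fold change of −1.25 in MATIP and −0.32 in MAflox cells, Cbx2 1.83 and −0.14, and Cbx7 −0.18 and 0.91. Ring1 in MAflox cells has an adjusted p of 0.0701 in the authors' deposited table and is the 1 gene of the 10 whose call there differs from the fit above.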
